A study of Mus musculus with 65 samples.

Results

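Short deletions with inserted filler bases are repair products in which bases were lost at a Cas9 cut and at least 1 base that the aligned template does not place there stands between both ends. They were chosen read by read, selected on measured lengths: junctions with a net loss of 2 to 19 bp and a gap of at least 1 read base between the matched left and right parts. This gave 11213 of 828461 reads, or of 325230 indel reads (reads whose net length is not 0), over 65 amplicon libraries of mouse hepatocyte DNA. Of these, 11199 lay in 44 libraries with a guide RNA and 14 in 21 libraries with an empty vector (EV). The same 44 libraries held 45771 plain deletions of 2 to 19 bp, whose ends abut or share 1 base, and 11874 with a microhomology of at least 2 bp at the junction.

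All mice had the genotype Rosa-LSL-Cas9-EGFP, a cassette at the Rosa locus that needs Cre to express Cas9 and EGFP, and were given an AAV vector (adeno-associated virus) retro-orbitally; how Cre was supplied is not in the labels. The tested arms carried sgRNAs and carry the label KO (weeks post injection, wpi: 1 library at 1, 17 at 2, 3 at 3, 3 at 8), PTG (4 libraries each at 2, 3 and 6 wpi) and coinjection (4 each at 2 and 3 wpi); PTG is not spelled out. PTG and coinjection hold the Lats1 and Lats2 sites, KO the rest, and the EV arm has 1 library for each of the 21 sites at 2 wpi. No arm has more than 1 library for a site and time, the labels do not say which sites share an animal, and nothing here measures the spread between animals. Fisher's exact tests (two-sided) below therefore compare libraries, not conditions. Intervals are Clopper-Pearson for shares and Newcombe for differences, at 95%, and cover counting error only, because these reads carry no molecular identifiers and copies of 1 molecule count as several reads. Depth ran from 2879 to 27974 reads in the sgRNA libraries and from 2290 to 25575 in the EV libraries.

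The targets differ in function, though some of them share a task. EGFP is the reporter of the cassette itself. Hnf4a encodes a nuclear receptor of hepatocyte identity, Kif11 a mitotic kinesin, Fah the last enzyme of tyrosine breakdown, and Lats1 and Lats2 kinases of the Hippo pathway. Polg and Polg2 encode the catalytic and accessory subunits of the mitochondrial DNA polymerase, and Tfam packages mitochondrial DNA. In the RefSeq annotation of GRCm38.p6 (mm10), Fah spans chr7:84585159-84605942, Polg chr7:79446231-79467911, Hnf4a chr2:163506811-163572907 and Kif11 chr19:37376382-37421863. In the same annotation Lats1 spans chr10:7681200-7716461, Lats2 chr14:57689662-57746212, Polg2 chr11:106768204-106779537 and Tfam chr10:71225468-71238328. Where the cuts lie within these genes was not analysed here, and the tables hold positions and lengths but no letters of guides, amplicons or inserted bases, so no sequence is printed.

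As background, Cas9 leaves a double-strand break that mammalian cells mostly close by end joining. Nucleases can trim the ends, polymerases of the X family such as lambda and mu can fill or extend them, and ligase IV seals them. Polymerase theta joins ends through short homologies and can copy nearby sequence into the junction. Bases that end up between the joined ends are called filler or templated insertions.

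An allele is described below by the bases lost to the left of the cut (lower template positions), the bases lost to the right, and the bases inserted. The cut was taken in each library as the most frequent template position at which the left matched part ends. In all 65 tables the left matched part stops at or before the cut and the right part starts at or after it. A plain deletion that starts some bases away from the cut and leaves those bases in place would thus be listed as a loss on 1 side with the same number of inserted bases. Such reads cannot be told apart from true insertions here; they could make up any part of the alleles with loss on 1 side, which were 10365 filler reads (92.6%). The other 834 reads (7.45%), in 196 combinations of library and allele, had lost bases on both sides and cannot arise in that way.

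The choice of members fixes a loss of at least 3 bases, and these values are a description. Just outside the lower limit, a net loss of 1 bp with filler occurred in 7874 sgRNA reads and 22 EV reads; just inside it, a net loss of 2 bp occurred in 3484 sgRNA reads and 5 EV reads. At the upper limit, 77 sgRNA reads had a net loss of 19 bp and 80 had 20 bp, with 0 EV reads at either length. Abutting ends with no inserted base, the next class by gap, were found in 36694 sgRNA reads and 23 EV reads. Reads of unchanged length with replaced bases at the cut were 0.414% of sgRNA reads and 0.407% of EV reads. Both shares divide by all reads, indel reads included. Taken over the reads of unchanged length alone, the median per library was 1.05% in the sgRNA libraries and 0.257% in the EV libraries.

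Inserted stretches were short. A single inserted base accounted for 9371 of the 11199 sgRNA filler reads (83.7%), a pair of bases for 1061 (9.47%), 3 bases for 309 (2.76%), 4 to 9 bases for 335 (2.99%) and 10 or more for 123 (1.10%). The same skew was seen library by library: over the 42 sgRNA libraries with at least 20 filler reads the 1-base share had a median of 85.4%. The lowest was 36.7% at Tfam-sg2-3 and the highest 99.1% at Lats2-sg2 in the PTG arm at 6 wpi. In 37 of these 42 libraries the median filler was 1 base long.

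Losses were short too. Exactly 3 bases, the minimum, were lost in 3030 reads (27.1%), 4 in 2098 (18.7%) and 5 in 2220 (19.8%). Together 3 to 7 lost bases covered 9070 reads (81.0%), 8 to 19 covered 1898 (16.9%), and 231 reads (2.06%) had lost 20 or more. The net length was 2 bp in 31.1% of reads, 3 bp in 19.7% and 4 bp in 18.1%. A loss of 3 bases on 1 side with 1 inserted base was frequent: the left-sided form made up 1576 reads (14.1%) in 29 libraries and the right-sided form 1368 reads (12.2%) in 23 libraries.

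Loss on both sides was counted by filler length. It was seen in 3.83% (3.45 to 4.24) of reads with 1 inserted base, 16.6% (14.4 to 18.97) with 2, 33.7% (28.4 to 39.2) with 3, 40.3% (35.0 to 45.8) with 4 to 9 and 48.8% (39.7 to 58.0) with 10 or more. Counting each allele of a library once, the shares were 17.1%, 28%, 40.9%, 41.9% and 54.8% in the same order. The selection sets part of this order, because a longer filler needs a longer loss to leave a net loss of 2 bp, and displaced plain deletions would all count as 1-sided. Both-sided reads carried a median of 2 inserted bases (maximum 70) and had lost a median of 6 (maximum 78), against medians of 1 inserted and 4 lost for left-sided and 1 inserted and 5 lost for right-sided reads.

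**Figure D1:**
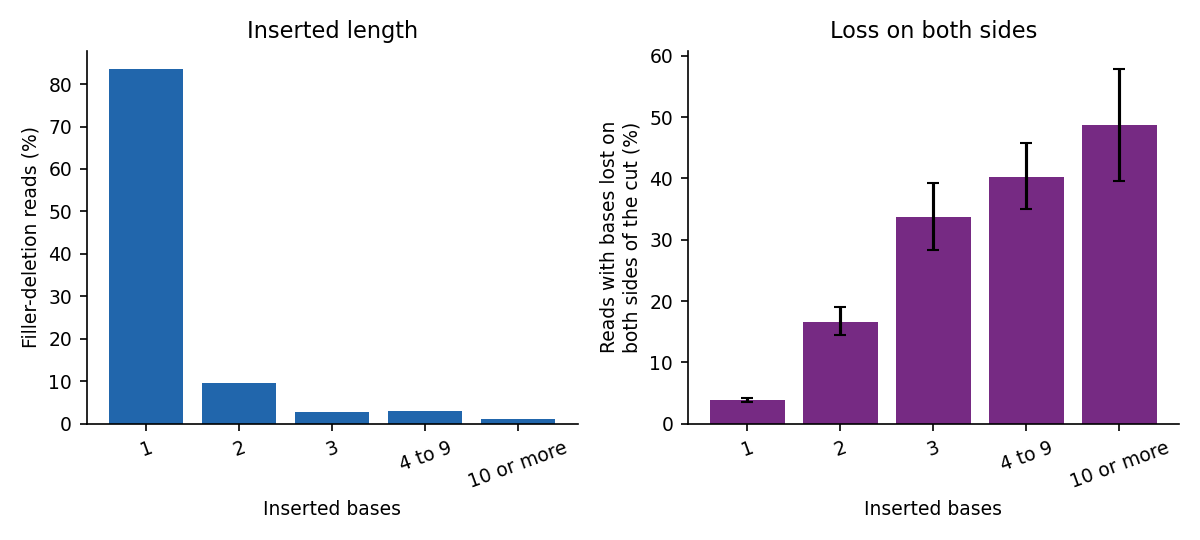
Inserted length of short deletions with filler, all 44 sgRNA libraries pooled. Left, percent of the 11199 filler reads by inserted bases, with 83.7% at 1 base. Right, percent of the reads of each length class with bases lost on both sides of the cut, with exact 95% intervals, between 3.83% at 1 base and 48.8% at 10 or more.

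The first comparison asked how often such reads appear with a guide and without one. At 2 wpi their share of all reads was higher in the sgRNA library than in the EV library at 21 of 21 sites (Fisher's exact tests, adjusted over 168 tests of 8 repair classes by 21 sites, largest adjusted p = 1.57e-08). Over all 8 classes 98.8% of the tests passed, all of them higher, so the filler class stands at the background of edited against unedited DNA. The mean over 9 targets of sgRNA minus EV was 2.45 ± 1.39 percentage points of reads (SD, n = 9 targets), above 0 for 9 of 9 (p = 0.00391 in a two-sided exact sign-flip test, the minimum for 9 targets). That test takes the targets as independent units, which the labels do not show, and its p covers only the spread between these targets. With only the alleles that lost bases on both sides, 17 of 21 sites passed, a count not set here against the share over all classes. The mean over targets was then 0.203 points, again above 0 by the same exact test (p = 0.00391). With at least 2 inserted bases 20 of 21 sites passed, against 98.2% of the tests over all classes, and the mean was 0.413 points.

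The highest share was 7.05% of reads at Fah-sg1, against 0.0292% in EV. Next came EGFP-sg1 with 4.15%, against 0.0358% in EV, and the coinjection library of Lats2-sg2 with 3.77%, against 0.0161% in EV. These 3 sites had the most EV reads of the class, between 3 and 4 each.

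A middle group followed. Kif11-sg3 had 3.71%, Polg2-sg3 3.52%, Fah-sg2 3.17%, Polg-sg3 3.02% and Lats1-sg1 2.99% of reads, and the Hnf4a sites had 2.17%, 1.85% and 1.79% for sg1, sg2 and sg3. Polg2-sg2 stood at 1.98%, Polg-sg1 at 1.76%, Lats1-sg2 at 1.44%, Kif11-sg1 at 1.34%, Lats2-sg1 at 1.28% and Kif11-sg2 at 1.27%. The EV libraries of these sites held 0 or 1 filler read.

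The lowest shares were 0.515% at Polg-sg2, 0.358% at Polg2-sg1, 0.336% at Tfam-sg1 and 0.300% at Tfam-sg2-3. In EV all 4 sites had 0 filler reads. In share of all reads, guides to 1 gene therefore spread widely: the Polg sites had 3.02%, 1.76% and 0.515%, and the Polg2 sites 3.52%, 1.98% and 0.358%. These values also carry the editing level of each library. Of indel reads alone the same Polg sites had 3.25%, 2.08% and 1.19%, and the same Polg2 sites 3.70%, 2.09% and 0.548%.

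**Figure D2:**
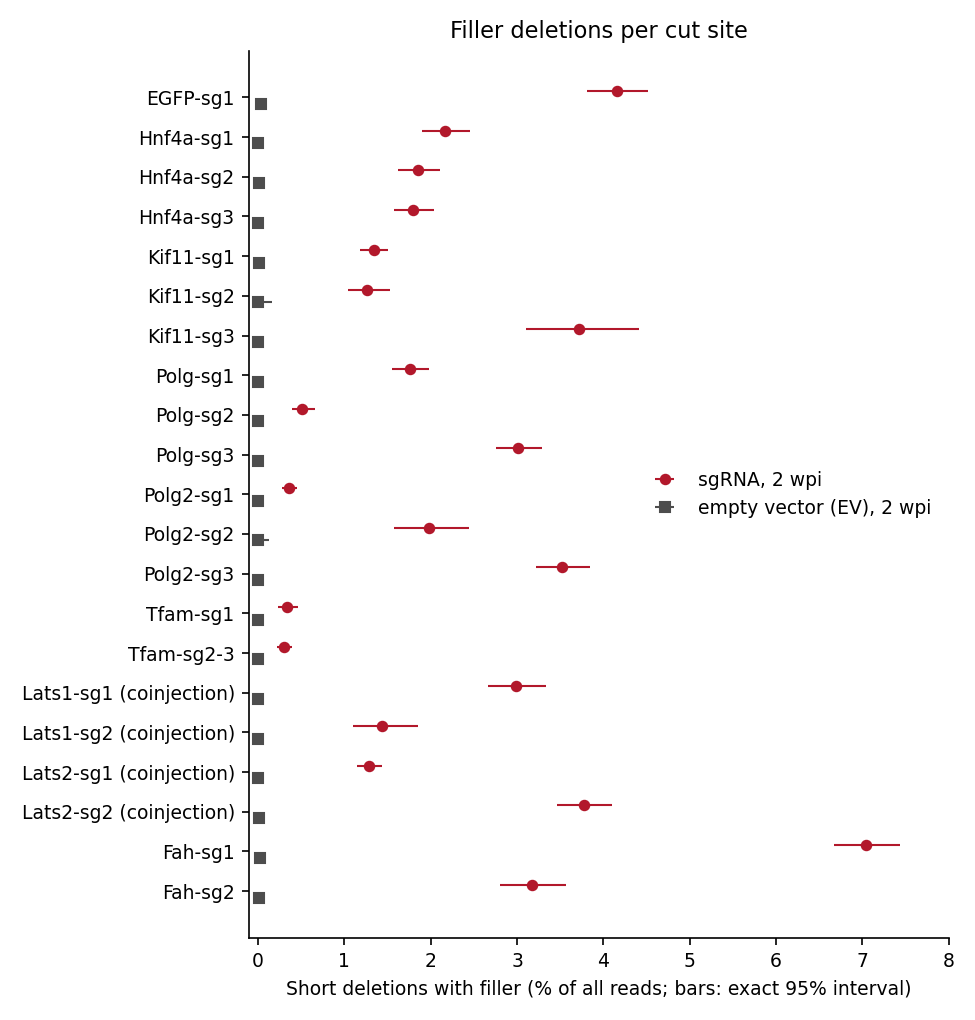
Share of all reads that are short deletions with filler, per cut site at 2 wpi, sgRNA library (circles) above its EV library (squares), with exact 95% intervals. The sgRNA libraries run from 0.300% at Tfam-sg2-3 to 7.05% at Fah-sg1, and EV libraries from 0 to 0.0358%.

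The background in EV was small but had the same form. Of 21 EV libraries 14 had 0 filler reads, which at their depths allows shares of up to between 0.0156% and 0.131%. The 14 EV reads fell on 9 alleles, of which 7 were 1-sided with 1 inserted base. Of the 9, 7 were also present in the sgRNA library of the same site and covered 12 of the 14 reads. The EV library of Fah-sg1 held 4 reads of the allele with 4 bases lost on the right and 1 inserted, the allele that ranked second with 311 reads in the sgRNA library. The EV library of Lats2-sg2 held 3 reads of the allele with 3 bases lost on the right and 1 inserted, which led the coinjection library with 428 reads. As a share of indel reads, filler deletions made up 3.45% (3.38 to 3.51) in the pooled sgRNA libraries and 3.71% (2.04 to 6.15) of the 377 indel reads in the pooled EV libraries. Where the EV reads came from was not tested.

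Among indel reads, which set editing level aside, the class had a median share of 3.21% over the 44 sgRNA libraries. The lowest library was Tfam-sg2-3 with 0.309% (0.228 to 0.408) and the highest Lats2-sg2 in the PTG arm at 2 wpi with 11.1% (9.41 to 13.04). At Tfam-sg2-3 only 140 of 15882 indel reads were deletions of 2 to 19 bp, and 35% of those 140 had filler. The share of indel reads was above 5% in 11 libraries and below 2% in 10. Guides to 1 target differed at 2 wpi: Fah-sg1 had 7.29% and Fah-sg2 3.35%, Lats2-sg2 had 9.47% and Lats2-sg1 3.26%, and Lats1-sg1 had 5.86% and Lats1-sg2 3.21% in the coinjection arm.

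Of all deletions of 2 to 19 bp, those with filler were a median of 16.6%, between 1.81% at Lats1-sg2 in the PTG arm at 2 wpi and 87.1% at Lats2-sg2 in the coinjection arm at 2 wpi. In 7 of 44 libraries filler reads outnumbered plain ones, and 5 of these 7 were all the sgRNA libraries of Lats2-sg2. There the coinjection libraries held 454 filler and 340 plain reads at 3 wpi and 549 and 33 at 2 wpi. The PTG libraries of Lats2-sg2 held 135 filler and 20 plain reads at 2 wpi, 132 and 119 at 3 wpi, and 227 and 205 at 6 wpi. The others were Lats1-sg1 in the PTG arm at 6 wpi, with 211 filler and 181 plain reads, and Polg-sg3, with 479 and 253.

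A few alleles carried most reads. An sgRNA library held between 3 and 42 filler alleles (median 15), and its most frequent one had a median of 36.2% of the filler reads in the 42 libraries with at least 20 of them. In 41 of 44 libraries that allele was 1-sided with 1 inserted base. Alleles were named where they were among the 3 most frequent filler alleles of the 2 wpi library of a site (coinjection for Lats sites) and reached 0.5% of its indel reads. This gave 26 alleles at 15 sites; 26 of the 26 had 1 inserted base and loss on 1 side, 12 of them on the left and 14 on the right, with 3 bases lost in 9, 4 in 5 and 5 in 6.

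Lats2-sg2 had the most frequent single allele. The loss of 3 bases on the right with 1 inserted had 428 reads in the coinjection library at 2 wpi, 7.38% (6.72 to 8.09) of its indel reads and 78.0% of its filler reads. Lats1-sg1 came next by share, with the mirror form: 3 bases lost on the left and 1 inserted in 200 reads, 3.81% (3.31 to 4.36) of indel reads. Both sites thus had a net loss of 2 bp as their main filler product.

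At Fah-sg1 the filler reads were spread over a ladder on the right side. With 1 inserted base, a loss of 5 bases had 411 reads (2.47% of indel reads), a loss of 4 had 311 (1.87%) and a loss of 6 had 105 (0.630%). Lats2-sg1 had a pair of near-equal alleles, 146 reads with 4 bases lost on the right (1.62%) and 132 with 3 (1.46%). Polg2-sg3 had a similar pair on the left, 170 reads with 5 bases lost (1.30%) and 168 with 3 (1.28%). The alleles of a site share 1 cut and 1 library, so they are not independent of each other.

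The remaining named alleles were smaller. Kif11-sg3 was led by 3 bases lost on the right (47 reads, 1.76%), Lats1-sg2 by 4 on the left (29 reads, 1.58%) and Polg-sg3 by 4 on the right (175 reads, 1.19%), each with 1 inserted base. EGFP-sg1 had no dominant allele: its first had 4 bases lost on the left (91 reads, 0.756%), its second 5 on the right (88 reads, 0.731%) and the next 14 on the left (61 reads, 0.507%). All other named alleles lay between 0.507% and 0.837% of indel reads.

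The side of the loss differed sharply between sites. At 2 wpi the left side alone held most filler reads at 9 of 21 sites and the right side alone at 8, and the remaining sites had no majority. More than 90% lay on the left at 3 sites: 97.9% at Polg2-sg3, 96.8% at Lats1-sg1 and 94.0% at Hnf4a-sg3. More than 90% lay on the right at 5: 98.2% at Lats2-sg2, 95.6% at Lats2-sg1, 95.2% at Kif11-sg1, 92.1% at Polg-sg3 and 91.7% at Fah-sg1. The orientation of each template relative to its guide is not in the tables, so left and right cannot be read as the guide's side.

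Plain deletions with abutting ends did not always share that side. Among deletions with loss on 1 side, the majority side was the same for filler and plain deletions at 13 of 21 sites and the opposite at 7, and at Kif11-sg2 the plain ones were split evenly. Some of the 7 are weak: the left held 49.8% of 773 plain reads at Polg-sg2 and 45.5% of 110 at Hnf4a-sg3. Lats2-sg2 had only 6 such plain reads. At Fah-sg2 the left side held 90.9% of the 1-sided filler reads, against 20.2% of the 381 plain ones. At Polg-sg3 the left held 2.65% of the filler reads, against 57.3% of the 75 plain ones. At Tfam-sg1 it held 89.2%, against 28.3% of 46 plain reads.

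**Figure D3:**
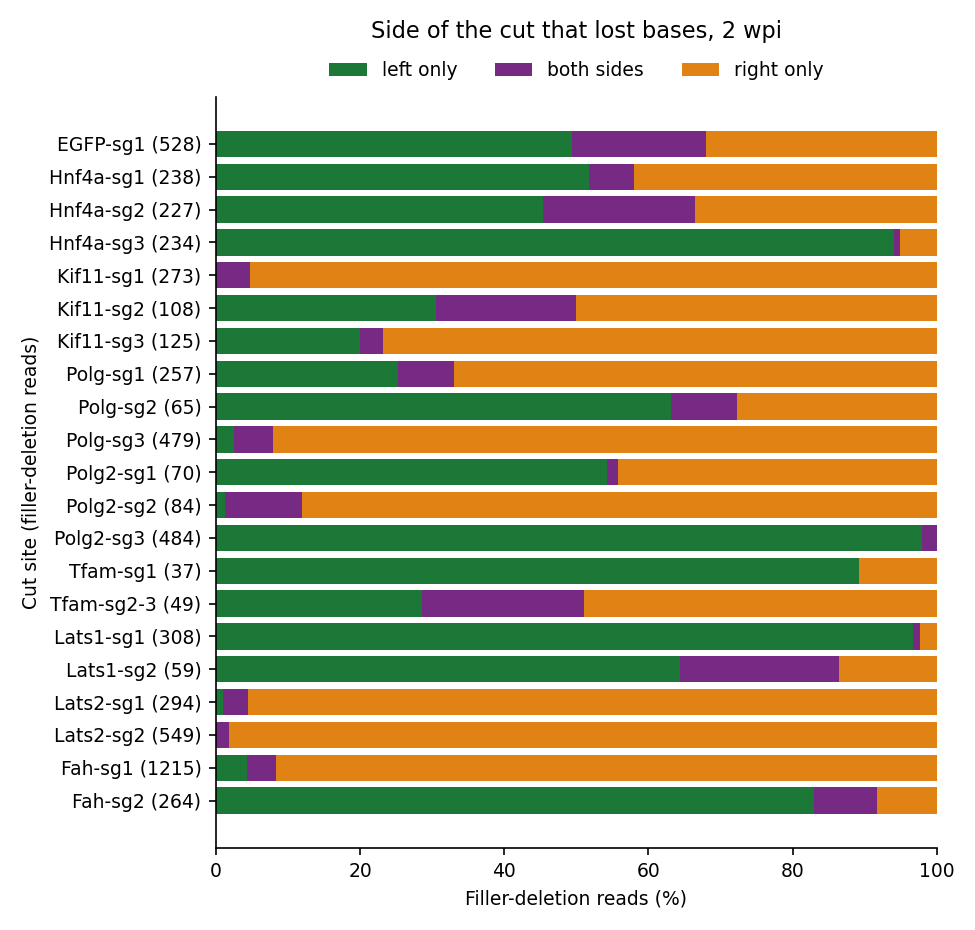
Side of the cut that lost bases, per site at 2 wpi (KO; coinjection for Lats sites), as percent of the filler reads of the library, whose number stands beside the site name. Polg2-sg3, Lats1-sg1 and Hnf4a-sg3 are over 90% left only, and Lats2-sg2, Lats2-sg1, Kif11-sg1, Polg-sg3 and Fah-sg1 over 90% right only.

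Loss on both sides, the form free of the ambiguity above, was found in 40 of 44 sgRNA libraries. It made up a median of 5.09% of filler reads and 0.167% of indel reads per library. The highest share of filler reads was 38.1% at Lats2-sg1 in the PTG arm at 6 wpi and the lowest 0 of 37 at Tfam-sg1. The most frequent such alleles were a loss of 3 bases on the left and 1 on the right with 2 inserted at Fah-sg1, with 42 reads at 3 wpi and 28 at 2 wpi, and a loss of 3 on each side with 4 inserted at EGFP-sg1 (39 reads at 2 wpi).

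Set against plain deletions with abutting ends, both-sided loss showed no common direction over the targets. Filler minus plain averaged -1.63 ± 13.8 percentage points over 9 targets (SD; exact sign-flip test, two-sided, p = 0.773), above 0 for 5 and below 0 for 4. The target values ran from -31.5 for Lats2 to 15.4 for EGFP, where 18.6% of filler reads and 3.19% of plain reads had lost bases on both sides. For Lats2 the extreme rests on Lats2-sg2, with both-sided loss in 1.82% of 549 filler reads, against 57.1% of only 14 plain reads. With at least 2 inserted bases the mean turned to 16.1 points (p = 0.0430, the same exact test), it was 2.48 points without the most frequent allele, and without 1 target at a time it ran from -3.76 to 2.10, the last without Lats2.

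Long fillers were rare and sat in few libraries. Only 51 reads in 8 sgRNA libraries had 20 or more inserted bases, on 13 alleles. Of these reads 23 came from the KO library called Tfam-sg2-3 here, whose title names sg2-3 and whose treatment label names sg2. There they were 23 of 49 filler reads, on 5 alleles with 40 to 51 inserted and 50 to 57 lost bases. In 1 of these alleles (6 reads) 1 base was lost on the left and 53 on the right, and the others had lost bases on the right only. Loss on 1 side cannot be told apart here from a plain deletion displaced from the cut, so these need not be true insertions. EGFP-sg1 at 1 wpi had 10 reads of 1 allele with 25 bases lost on the left and 23 inserted, and Kif11-sg1 at 2 wpi 6 reads with 37 lost and 21 inserted. The longest filler was a single read at Hnf4a-sg2, with 70 inserted and 78 lost bases.

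A net length that is not a multiple of 3 shifts the reading frame of a coding sequence. This held for a median of 74.1% of filler reads, against 79.96% of plain reads, over the 42 libraries with at least 20 filler reads, and the filler value was the higher one in 18 of 42. The spread was wide: 89.5% of filler reads, against 42.9% of plain reads, at Polg2-sg3, and 39.0%, against 98.6%, at Lats1-sg2 in the coinjection arm at 2 wpi. Of all sgRNA filler reads 3384 (30.2%) had a net length that is a multiple of 3.

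The next question was whether the share of indel reads differed between times. Of 20 comparisons of a later with an earlier library, 10 passed the test (Fisher's exact test, adjusted over 160 tests of 8 classes), 3 higher and 7 lower at the later time. Over all classes 53.8% passed, 27.5% higher and 26.2% lower, so the count lies close to the background. The comparisons are not independent, because some share a library. Those of EGFP-sg1 are all pairs among the same libraries, and each PTG comparison uses the 2 wpi library of its site. In the PTG arm 3 and 6 wpi were each compared with 2 wpi, and 6 against 3 wpi was not tested.

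EGFP-sg1 had filler in 1.66%, 4.39% and 3.75% of indel reads at 1, 2 and 3 wpi. The share was higher at 2 than at 1 wpi by 2.73 points (interval 2.21 to 3.22, adjusted p by the exact test = 1.00e-20), higher at 3 than at 1 wpi by 2.09 points (1.60 to 2.56, adjusted p = 4.18e-14) and lower at 3 than at 2 wpi (-0.635 points, -1.13 to -0.141, adjusted p = 0.0267). The last call was lost without each library's most frequent allele (exact adjusted p = 0.295). That allele had 4 bases lost on the left at 2 wpi and 7 at 3 wpi, each with 1 inserted. The 3 against 2 wpi difference turned to 0.677 points with at least 2 inserted bases (exact adjusted p = 1.59e-06). The first call was lost with at least 2 inserted bases (-0.111 points, exact adjusted p = 0.563) and the second with both-sided alleles only (-0.0671 points, exact adjusted p = 0.612). The alleles themselves were many: 20, 41 and 42 at 1, 2 and 3 wpi, of which 9 occurred at all 3 times. Both sequencing tiles of the 2 wpi library differed by -0.995 points (unadjusted exact p = 0.00859). Among the 44 sgRNA libraries 3 had such a p under 0.05, against 2.2 by chance.

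At the Kif11 sites, Kif11-sg1 was higher at 8 wpi with 2.14% of indel reads, against 1.51% at 2 wpi (0.627 points, interval 0.336 to 0.926, adjusted p by the exact test = 9.07e-05). That call was lost when both edges had to lie within 10 bp of the cut (exact adjusted p = 0.603) and with at least 2 inserted bases (adjusted p = 0.871). Kif11-sg2 had 1.91% at 8 wpi, against 2.12% at 2 wpi (-0.726 to 0.281 points), and Kif11-sg3 3.69%, against 4.68% (-2.05 to 0.0488 points), and neither passed.

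The Fah sites did not pass either, but did under some alternatives. Fah-sg1 had 7.03% at 3 wpi, against 7.29% at 2 wpi (-0.803 to 0.277 points, exact adjusted p = 0.419), and Fah-sg2 3.98%, against 3.35% (0.0699 to 1.20 points, exact adjusted p = 0.0510). With at least 2 inserted bases both passed, at -0.457 points for Fah-sg1 (exact adjusted p = 4.66e-06) and 0.496 points for Fah-sg2 (exact adjusted p = 0.000381). Fah-sg2 also passed without 1 bp indels (4.17 points, exact adjusted p = 0.00185) and as a share of short deletions (5.75 points, exact adjusted p = 0.00293), and Fah-sg1 turned to 0.279 points with both-sided alleles only (exact adjusted p = 0.000211). At Fah-sg1 15 alleles were in both libraries and held 91.6% of filler reads at 3 wpi and 91.7% at 2 wpi. The loss of 5 on the right with 1 inserted stood at 2.52% of indel reads at 3 wpi, against 2.47% at 2 wpi, and the loss of 4 at 1.63%, against 1.87%. Fah-sg2 moved more within the class: the loss of 3 on the left with 1 inserted had 1.32% at 3 wpi, against 0.837% at 2 wpi, while the loss of 6 on the left had 0.0766%, against 0.507%.

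In the PTG arm both Lats2 sites were lower after 2 wpi. Lats2-sg1 had filler in 7.81%, 0.940% and 2.73% of indel reads at 2, 3 and 6 wpi, and Lats2-sg2 in 11.1%, 5.59% and 3.21%. All 4 differences from 2 wpi passed the test, at -6.87 (-8.55 to -5.42) and -5.08 (-6.78 to -3.63) points for Lats2-sg1 and -5.54 (-7.62 to -3.61) and -7.92 (-9.85 to -6.21) points for Lats2-sg2. The largest of their adjusted p-values was 3.30e-08 (Fisher's exact test).

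These differences rest on 2 wpi libraries with few indel reads and few alleles. The PTG libraries at 2 wpi had 1203 indel reads and 4 filler alleles at Lats2-sg1 and 1213 indel reads and 5 filler alleles at Lats2-sg2. The leading allele of Lats2-sg1 changed with time: 6 bases lost on the right at 2 wpi (58 of 94 filler reads, 4.82% of indel reads), 3 on the right at 3 wpi and 4 on the right at 6 wpi, each with 1 inserted. With each library's leading allele left out the differences were -2.78 and -1.60 points at Lats2-sg1 and -2.91 and -4.15 points at Lats2-sg2. With indels of 1 bp left out of the denominator, Lats2-sg2 lost its call at 3 wpi (-1.45 points, exact adjusted p = 0.845). With at least 2 inserted bases Lats2-sg1 turned to 0.0976 points at 3 wpi (exact adjusted p = 0.777) and 1.17 points at 6 wpi (exact adjusted p = 7.20e-05), and with both-sided alleles only it gave 0.957 points at 6 wpi (exact adjusted p = 0.000838). Both sequencing tiles of its 2 wpi library differed by -3.49 points (unadjusted exact p = 0.0312), 1 of the 3 tile differences under 0.05, against 2.2 by chance.

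At the Lats1 sites of the PTG arm no time passed with all filler alleles over all indel reads. Lats1-sg1 had 5.63%, 4.72% and 6.502% and Lats1-sg2 1.35%, 2.24% and 2.78% of indel reads at 2, 3 and 6 wpi. For Lats1-sg2 these are 9, 10 and 49 filler reads, and its 6 against 2 wpi difference of 1.43 points (0.0567 to 2.52) had an exact adjusted p of 0.0672. That difference passed in 5 alternatives, with exact adjusted p-values between 0.0111 and 0.0477. The lowest came without alleles under 10 reads, which left 0 filler alleles at 2 wpi, so this pass follows from the 9 filler reads of that library. For Lats1-sg1 the 3 against 2 wpi difference passed without alleles under 10 reads (-1.71 points, exact adjusted p = 0.00139). That read minimum left 1 filler allele at 3 wpi and 4 at 2 wpi, in libraries with 162 and 305 filler reads, so it depends on depth. The 6 against 2 wpi difference of Lats1-sg1 passed as a share of short deletions (exact adjusted p = 0.0288) and with both-sided alleles only (exact adjusted p = 0.0365).

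The coinjection arm showed smaller differences between 3 and 2 wpi. Lats2-sg1 had 2.51% at 3 wpi, against 3.26% at 2 wpi (-0.744 points, interval -1.23 to -0.260, adjusted p by the exact test = 0.00697). Lats2-sg2 had 7.60% at 3 wpi, against 9.47% at 2 wpi (-1.87 points, interval -2.88 to -0.863, adjusted p by the exact test = 0.000861). Lats1-sg1 with 6.70%, against 5.86%, and Lats1-sg2 with 2.97%, against 3.21%, did not pass.

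At Lats2-sg2 a single allele set the direction of that difference. The loss of 3 on the right with 1 inserted had 4.12% (3.63 to 4.65) of indel reads at 3 wpi, against 7.38% at 2 wpi. Without the most frequent allele the difference turned to 1.38 points higher at 3 wpi (exact adjusted p = 6.75e-05). It also turned, as a call, to 0.513 points with at least 2 inserted bases (exact adjusted p = 8.34e-05), 1.52 points at 3 to 19 bp (exact adjusted p = 1.45e-06) and 1.07 points with both-sided alleles only (exact adjusted p = 4.87e-12). At Lats2-sg1 the difference turned to 0.309 points with at least 2 inserted bases (exact adjusted p = 3.51e-05) and lost its call without the most frequent allele (-0.308 points, exact adjusted p = 0.162), at 2 to 29 bp (exact adjusted p = 0.390) and at 3 to 19 bp (0.0641 points, exact adjusted p = 0.851).

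**Figure D4:**
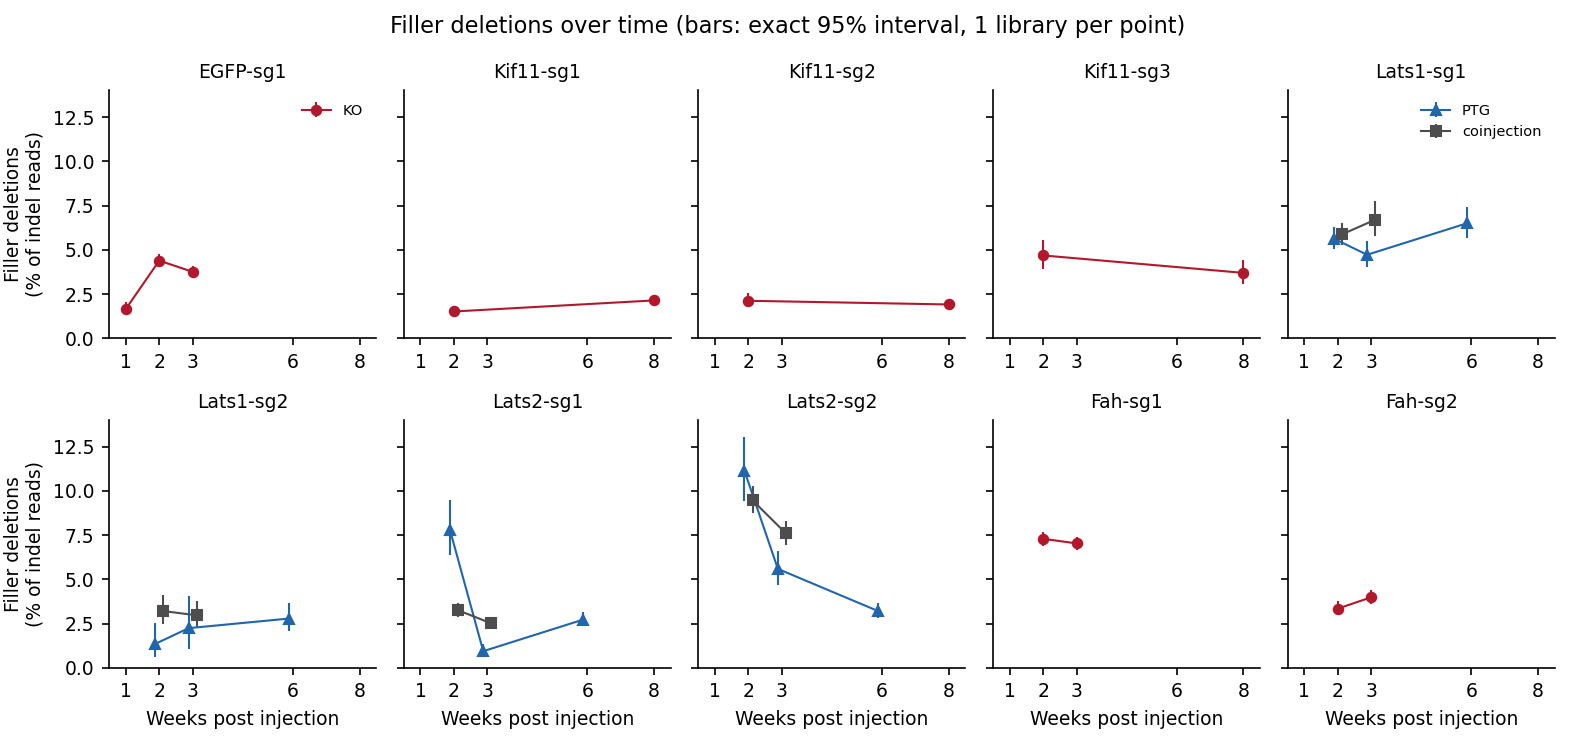
Short deletions with filler as percent of indel reads, by weeks post injection, at the 10 sites with more than 1 sgRNA library; 1 library per point, exact 95% intervals. The PTG libraries of Lats2-sg1 and Lats2-sg2 stand at 7.81% and 11.1% at 2 wpi and lower at 3 and 6 wpi, and EGFP-sg1 stands at 1.66% at 1 wpi.

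PTG was then set against coinjection at the same site and time. Of 8 comparisons 5 passed (Fisher's exact test, adjusted over 64 tests of 8 classes), 1 higher and 4 lower in PTG. Over all classes 60.9% passed, 21.9% higher and 39.1% lower, so the filler class again lies near the background. The PTG libraries are the same ones as in the comparisons over time.

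At 2 wpi Lats2-sg1 was the 1 site that passed with a higher share, 7.81% in PTG, against 3.26% in coinjection (4.56 points, interval 3.12 to 6.25, adjusted p by the exact test = 1.99e-11). The difference was 1.48 points without each library's most frequent allele, which was not the same in both arms, and 0.00557 points with at least 2 inserted bases. Lats1-sg2 was lower, 1.35% in PTG, against 3.21% in coinjection (-1.85 points, interval -2.97 to -0.460, adjusted p by the exact test = 0.0195), from 9 and 59 filler reads. That call was lost without each library's most frequent allele, which again was not the same in both arms (exact adjusted p = 0.0790). Lats1-sg1 with 5.63%, against 5.86%, and Lats2-sg2 with 11.1%, against 9.47%, did not pass. Lats1-sg1 passed, lower in PTG, with at least 2 inserted bases (-0.563 points, exact adjusted p = 0.00101) and with its leading allele left out (exact adjusted p = 0.0284). Lats2-sg2 passed in both directions: it was 3.02 points higher in PTG without the most frequent allele (exact adjusted p = 1.04e-06), but -11.2 points without 1 bp indels (exact adjusted p = 0.00106) and -20.6 points as a share of short deletions (exact adjusted p = 1.39e-09).

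At 3 wpi 3 of 4 sites were lower in PTG. Lats1-sg1 had 4.72% in PTG, against 6.70% in coinjection (-1.98 points, interval -3.21 to -0.797, adjusted p by the exact test = 0.00268). Lats2-sg1 had 0.940%, against 2.51% (-1.57 points, -2.02 to -1.05), and Lats2-sg2 5.59%, against 7.60% (-2.01 points, -3.11 to -0.817). Lats1-sg2 had 2.24%, against 2.97%, from 10 and 65 reads, and did not pass. With indel reads longer than 1 bp as the denominator, Lats1-sg1 turned to 1.54 points (exact adjusted p = 0.690) and Lats2-sg2 to 3.77 points (exact adjusted p = 0.282). The Lats2-sg2 call was also lost within 10 bp of the cut (exact adjusted p = 0.106), and that of Lats2-sg1 with at least 2 inserted bases (exact adjusted p = 0.197).

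The leading alleles of Lats1-sg1 and Lats2-sg2 recurred in all 5 sgRNA libraries of their site. At Lats1-sg1, the loss of 3 on the left with 1 inserted had 74.4%, 79.6% and 76.3% of filler reads in PTG at 2, 3 and 6 wpi, and 66.7% and 64.9% in coinjection at 3 and 2 wpi. As a share of indel reads it stayed between 3.76% and 4.96% over these 5 libraries. At Lats2-sg2, the loss of 3 on the right with 1 inserted had 55.6%, 59.1% and 65.6% of filler reads in PTG at 2, 3 and 6 wpi, and 54.2% and 78.0% in coinjection at 3 and 2 wpi. As a share of indel reads it was 6.18%, 3.30% and 2.11% in PTG, and 4.12% and 7.38% in coinjection at 3 and 2 wpi.

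Less frequent alleles recurred as well. At Lats1-sg1 the losses of 5 and of 7 on the left with 1 inserted, and at Lats2-sg2 the loss of 5 on the right with 1 inserted, had at least 5 reads in every library of the site. Over the 33 libraries of sites with more than 1 sgRNA library, alleles present in every library of the site were a median of 25% of the filler alleles and 65.1% of the filler reads. The range of that read share was 11.5% at Lats2-sg1 in the PTG arm at 3 wpi to 94.8% at Lats1-sg1 in the PTG arm at 2 wpi. Every library means 2 at the Kif11 and Fah sites, 3 at EGFP-sg1 and 5 at the Lats sites, so the demand differs between sites. Alleles found in at least 1 other library of the site held a median of 77.2% of filler reads, and 73.1% in that Lats2-sg1 library. No read name occurred in more than 1 of the 65 tables used.

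**Figure D5:**
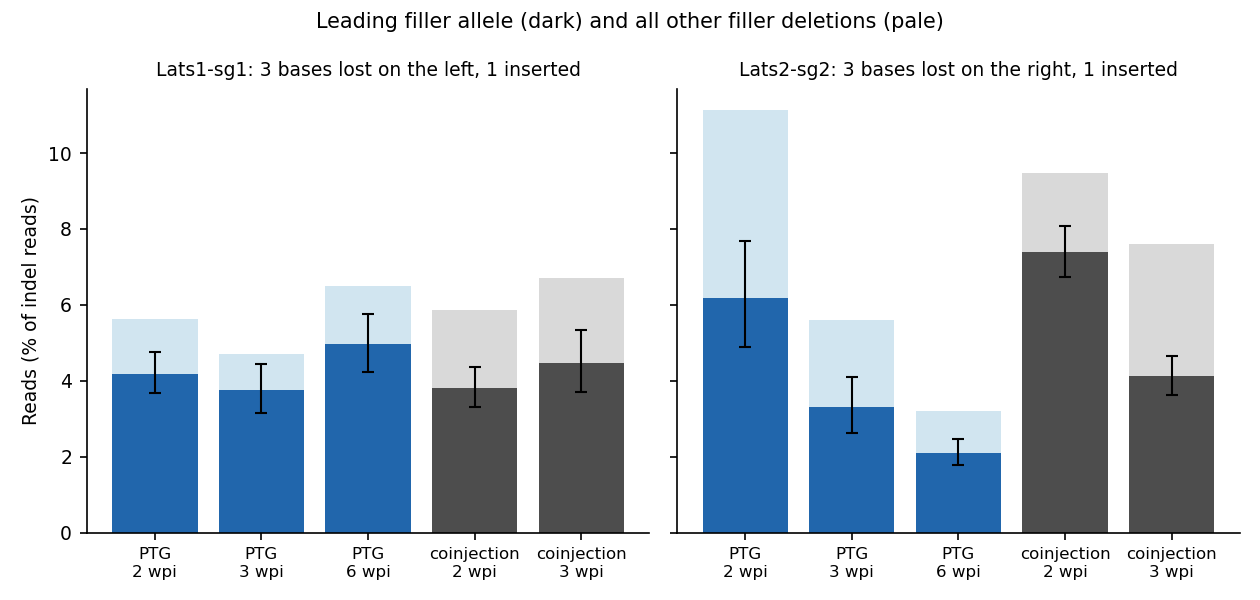
Leading filler allele (dark, exact 95% interval) and all other short deletions with filler (pale) as percent of indel reads, in the PTG libraries (blue) and the coinjection libraries (grey) of Lats1-sg1 and Lats2-sg2. The allele lies between 3.76% and 4.96% at Lats1-sg1 and between 2.11% and 7.38% at Lats2-sg2.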

How the data were processed

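Regions around each cut were amplified from mouse hepatocyte DNA and sequenced (per the labels' protocols). Without giving roles, processing notes of the submitters list mm10, deepTools, Bowtie2, R 4.2.1 and bcl2fastq; what set the junctions is not given in these sources. The deposited tables hold 1 line per read with template and read positions, net indel length and microhomology in bp, per the file headers; 65 were used, and 2 on a second Tfam template were not. An allele is a set of bases lost left, lost right and inserted; up to 3 per site at 2 wpi with 0.5% of indel reads were named. Two-sided Fisher's exact tests compared 8 repair classes in all libraries of a comparison, with Benjamini-Hochberg adjustment over 168, 160 or 64 tests at 0.05; sign-flip tests used 9 targets. Alternatives changed read minimums, inserted and net lengths, distance, denominators, arm, unit and targets. On simulated counts the time tests called 4 of 800 comparisons without a difference (0.5%) and 161 of 200 with 2 points (80.5%). Those counts were drawn as independent reads and adjusted over another number of tests. They therefore give no error rates for the real reads, which may include copies of 1 molecule. These members, lists and tests were chosen with earlier results of these data known. The 44 sgRNA libraries each span 2 tiles of 1 flow cell; 3 differed between tiles at an unadjusted exact p under 0.05, against 2.2 by chance. Tests used scipy 1.17.1, tables pandas 2.3.3 and numpy 2.4.6 under Python 3.11.15, and figures matplotlib 3.10.9.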

Additional observations from a re-analysis of the deposited data

Results flagged for a closer look

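At Tfam-sg2-3 a second table, which the comparisons above leave out, places some of the same reads on a shorter template. There 81 of 14876 KO reads, 0.545% (0.433 to 0.676), had a net loss of 2 to 19 bp with inserted bases, against 0 of 170 EV reads. Taken as 3 reads over the depth, the EV value allows up to 1.76%. The KO share is listed because a signal appears in data outside the main measurement. On the full template all 81 are deletions of 20 bp or more, 42 of them with inserted bases and 39 without, so none counts there as a short deletion with filler.

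The means over the sites of a target went opposite ways in 3 places; none of these differences was tested. PTG minus coinjection at 2 wpi was -1.04 points of indel reads for Lats1, with both sites below 0, and 3.11 points for Lats2, with both sites above 0. The Lats2-sg2 value depends on the denominator and alleles: it was -11.2 points without 1 bp indels, -20.6 points as a share of short deletions and -0.0379 points within 10 bp of the cut. Lats1-sg1 likewise turned to 1.45 points without 1 bp indels and 0.488 points without alleles under 10 reads. For Lats2 the same contrast came to -1.79 points at 3 wpi, against 3.11 at 2 wpi, again with both sites on 1 side each time. In the PTG arm, 6 minus 2 wpi was 1.15 points for Lats1 and -6.50 points for Lats2. All of these use the PTG libraries of 2 wpi, except the 3 wpi value, and the Lats2 libraries of that arm and time hold 4 and 5 filler alleles.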

How the results depend on the processing

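No paired analysis was possible because the labels give no replicate numbers and each group is 1 library. The mean of sgRNA minus EV over targets passed its test in every alternative run and lay between 2.11 and 2.71 points without 1 target at a time (exact sign-flip p = 0.00781, the smallest for 8 targets); Tfam-sg1 lost its call with at least 2 inserted bases, and with both-sided alleles only so did Hnf4a-sg3, Polg2-sg1, Tfam-sg1 and Lats1-sg1. The both-sided difference reversed to 16.1 points with at least 2 inserted bases (exact p = 0.0430), gave 2.48 without the leading allele and ran from -3.76 to 2.10 without 1 target at a time, the last without Lats2. The median share of indel reads was 0.471% with at least 2 inserted bases, 1.82% at 3 to 19 bp, 1.77% without the leading allele, 13% with each allele counted once, 6.98% without 1 bp indels, 16.6% of short deletions and 0.167% with both-sided alleles only, an alternative chosen after seeing the data. Without alleles under 10 reads the 1-base share was 93.9% and the leading allele 52.8%; with each allele counted once the 1-base share was 50.7%. PTG calls fell to 3 of 8 within 10 bp of the cut and to 3 with both-sided alleles only. These counts are not set here against the share over all classes. Single differences turned sign as follows, in points. With at least 2 inserted bases these were EGFP-sg1 -0.111 (2 against 1 wpi) and 0.677 (3 against 2), coinjection Lats1-sg1 -0.0711, Lats2-sg1 0.309 and Lats2-sg2 0.513 (3 against 2), and PTG Lats2-sg1 0.0976 (3 against 2) and 1.17 (6 against 2). At 3 to 19 bp they were coinjection Lats2-sg1 0.0641 and Lats2-sg2 1.52 over time, without the leading allele Lats1-sg2 0.462 and Lats2-sg2 1.38, and within 10 bp of the cut Lats1-sg2 0.408. Leaving out 1 bp indels gave 1.08 for Fah-sg1 and -0.504 for coinjection Lats1-sg1; short deletions as denominator gave -1.23 for Lats1-sg1 in coinjection and 0.904 in PTG (3 against 2). Without alleles under 2 reads PTG Lats1-sg2 gave -0.410 (3 against 2). For PTG against coinjection, Lats1-sg1 at 2 wpi gave 0.488 without alleles under 10 reads and 1.45 without 1 bp indels, and 1.54 at 3 wpi without 1 bp indels. There Lats2-sg2 gave -0.0379 at 2 wpi within 10 bp, -11.2 at 2 wpi and 3.77 at 3 wpi without 1 bp indels, and -20.6 and 1.71 over short deletions. With both-sided alleles only, EGFP-sg1 gave -0.0671 (3 against 1 wpi), Kif11-sg3 0.0123 (8 against 2), Fah-sg1 0.279 and Fah-sg2 -0.0179 (3 against 2), coinjection Lats2-sg2 1.07, PTG Lats1-sg1 0.0213 (3 against 2) and PTG Lats2-sg1 0.957 (6 against 2); PTG against coinjection gave -0.0277 at Lats2-sg1 (2 wpi) and 0.174 at Lats1-sg2 (3 wpi). Of these 34 changes of sign, 8 were called on both sides, 11 on 1 side and 15 on neither. The cause was not tested. Of the other single comparisons under an alternative, 440 kept direction and call, 25 lost their call and 18 gained one. Few indel reads limit PTG Lats1-sg2 at 2 and 3 wpi, with 665 and 446 of them.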
